A study of Rattus norvegicus with 24 samples.

Results

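Oat beta-glucans of high and of low molecular weight were compared directly in rats injected with lipopolysaccharide (LPS), by setting the blood transcripts of LPS-G1 rats against those of LPS-G2 rats. LPS-G1 rats were fed a diet with the high-molecular-weight preparation (G1), and LPS-G2 rats a diet with the low-molecular-weight one (G2). The arrays were chosen by their sample titles alone, 4 for each of these groups, so 8 of the 24 arrays of the series carried the comparison. All rats were Sprague Dawley males. Their stated age of 8 weeks is, by the methods of the study, that of the rats as obtained. Blood was taken after 6 weeks on the diet, and both LPS-G1 and LPS-G2 rats received repeated injections of LPS at 10 mg/kg. The other arrays held LPS-injected rats on the diet without beta-glucan (LPS-G0), rats on that diet without LPS (C-G0), and rats on the G1 and G2 diets without LPS (C-G1 and C-G2), 4 arrays each. Each array held the blood RNA of 1 rat and a reference RNA pooled from the rats of the experiment, so p-values measure the spread between rats. By title 4 arrays were LPS-G0, but another label of 2 of them names no LPS, so LPS-G0 values are given for orientation only.

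Beta-glucans are glucose polymers of oat and fungal cell walls. Myeloid cells bind them through receptors such as dectin-1 (Clec7a), which signals through Syk and Card9, and the size and solubility of the polymer bear on how it meets these receptors. LPS, a component of the outer membrane of Gram-negative bacteria, is sensed by Toll-like receptor 4 with Cd14 and Ly96, and drives NF-kB and interferon target genes. Whole blood RNA is a mixture in which reticulocytes, neutrophils, lymphocytes and platelets all take part.

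All values are the log2 ratio of Cy3 over Cy5. The sample labels place the rat RNA in Cy3, and the methods of the study place it in Cy5. The direction used here follows the labels, and signs turn if the methods hold. In LPS-G1 and LPS-G2, Cy3 varied more between arrays than Cy5 for 84.4% of 7074 probes that were bright in both channels (median SD 0.278 and 0.177).

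No transcript differed between LPS-G1 and LPS-G2 after adjustment. Of 10025 probes tested, 0 passed an adjusted p of 0.05 with at least a 2-fold difference (limma, Benjamini-Hochberg adjustment), which is 0% of them. The lowest adjusted p of any probe was 0.674. At an unadjusted p under 0.05, 668 probes (6.66%) differed, 222 with the higher mean in LPS-G1 (2.21%) and 446 with the lower (4.45%). This split depended on the channel, since the Cy3 signal alone gave 174 higher and 212 lower. The count of 668 also rested on single rats, since leaving out replicate 1, 2 or 4 of LPS-G1 gave 1211, 329 and 403 probes, in that order. The split depended too on the arrays that set the spread, since a fit of all 24 arrays gave 220 higher and 196 lower. With at least a 2-fold difference added, 43 probes (0.429%) remained, 19 of them higher in LPS-G1. Without LPS-G1 replicate 1 this count was 80, and without LPS-G2 replicate 2 it was 70, and the adjusted count was 0 in both cases.

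The intervals show which differences these arrays could have missed. For 8873 probes (88.5%) the 95% interval of the difference lay within 2-fold in both directions, and the median half-width of the interval was 0.429 on the log2 scale. The median absolute difference was 0.177, and 57 probes were at least 2-fold apart in their means. The median SD between rats was 0.223 in LPS-G1, 0.214 in LPS-G2 and 0.225 in LPS-G0. It was 0.366 in C-G0, which shares the fit. Of the probes tested, 8782 were well above background on all 8 arrays.

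**Figure D1:**
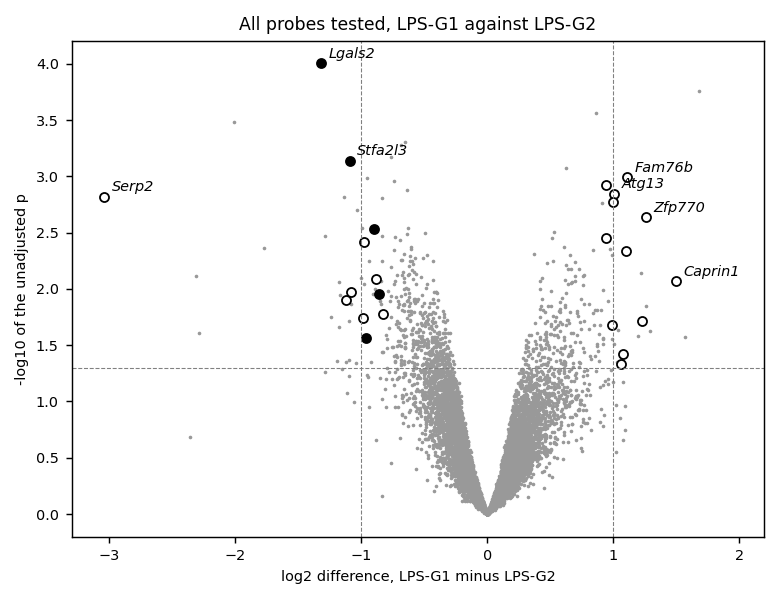
Each grey point is 1 of 10025 probes, with the log2 difference of the means (LPS-G1 minus LPS-G2) on the x axis and −log10 of the unadjusted limma p on the y axis, dashed lines marking 2-fold and an unadjusted p of 0.05. Circles are the 24 named genes, filled where the probe was well above background on all 8 arrays (5 genes). Lgals2 has the smallest p, and all 12 named genes with higher means in LPS-G1 are open circles.

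The 8 arrays did not fall cleanly into their groups. On the log2 ratios, without centring of probes, pairs of LPS-G1 arrays correlated at 0.12 to 0.45 across probes (median 0.255). Pairs of LPS-G2 arrays correlated at -0.06 to 0.30 (median 0.19). Pairs from different groups lay between -0.12 and 0.48 (median 0.02). LPS-G1 replicate 1 had its highest correlation, 0.48, with LPS-G2 replicate 3, and only 0.12 to 0.15 with its own group.

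Among named genes with lower means in LPS-G1, Serp2 had the largest difference, and Lgals2 and Stfa2l3 had the largest among those well above background on all 8 arrays. Serp2 belongs to the stress-associated proteins of the endoplasmic reticulum, Lgals2 encodes galectin-2, a lectin that binds beta-galactosides, and Stfa2l3 belongs to the stefins, inhibitors of cysteine proteases. The stretches of 250 bases before their start sites are shown because these 3 genes, picked after their values were seen, are described in full. They come from RefSeq on GRCr8, 5′ to 3′, and capitals mark matches to AGATAA (the core bound by GATA factors), GGAAGT (an ETS core) or TATAAA on either strand.
Serp2, chr15:58313225-58313474, strand -: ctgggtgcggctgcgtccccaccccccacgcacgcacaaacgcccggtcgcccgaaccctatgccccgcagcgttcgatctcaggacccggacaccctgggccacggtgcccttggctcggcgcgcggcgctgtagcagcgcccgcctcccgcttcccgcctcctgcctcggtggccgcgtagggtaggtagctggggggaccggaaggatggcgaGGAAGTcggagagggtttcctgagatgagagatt
Lgals2, chr7:112290124-112290373, strand -: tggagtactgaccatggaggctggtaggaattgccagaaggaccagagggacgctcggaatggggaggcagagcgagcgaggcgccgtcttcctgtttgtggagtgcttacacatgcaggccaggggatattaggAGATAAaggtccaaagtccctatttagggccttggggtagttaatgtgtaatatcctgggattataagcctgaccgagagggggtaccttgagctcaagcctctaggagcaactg
Stfa2l3, chr11:78093485-78093734, strand +: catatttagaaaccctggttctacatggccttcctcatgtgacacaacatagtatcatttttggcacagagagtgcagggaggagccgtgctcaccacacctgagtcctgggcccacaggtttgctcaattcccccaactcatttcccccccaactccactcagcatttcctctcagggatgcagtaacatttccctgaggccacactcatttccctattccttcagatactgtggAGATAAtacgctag
The Serp2 stretch held a GGAAGT, and the Lgals2 and Stfa2l3 stretches each held an AGATAA. Of all 33469 promoter stretches of this length, 10.3% held AGATAA, 19.2% GGAAGT and 12.9% TATAAA, on either strand. The matches describe letters and do not show that a factor binds there.

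Serp2 was measured by 2 probes. On the first, at chr15:57549499-57549556 of rn4, the LPS-G1 rats had log2 ratios of -3.80, -0.42, -3.43 and -3.37, and the LPS-G2 rats -0.35, -0.04, 0.89 and 0.63. LPS-G1 replicate 2 sat beside the LPS-G2 rats, and the other 3 LPS-G1 rats lay far below. In LPS-G1 its signal exceeded background clearly in 1 of 4 rats, and in LPS-G2 in all. It therefore entered the tests through LPS-G2 alone. The difference was -3.04 ± 0.80 (SE), with a 95% interval of -4.74 to -1.34 (limma, adjusted p = 0.674), taken largely against signal near background. With normexp background correction it was -1.32.
The second Serp2 probe gave -2.07, -0.58, -2.66 and -2.22 in LPS-G1 and -0.37, -0.29, 0.47 and 0.68 in LPS-G2. Its difference was -2.01 ± 0.45 (SE), with an interval of -2.95 to -1.06 and the same adjusted p of 0.674. Both probes thus placed the same 3 rats low. The second probe was well above background in 3 of 4 LPS-G1 rats and in all LPS-G2 rats. It too entered the tests through LPS-G2 alone, so the direction of both probes was favoured by the filter. In LPS-G0 rats the first probe read 1.04, -0.08, 1.39 and 1.26, near or above the LPS-G2 values. Without LPS the sign was opposite, with a difference of 0.65 ± 0.86 (SE) between C-G1 and C-G2. The rats without LPS were widely spread, with C-G1 at 0.04, -2.72, -0.54 and 0.92 and C-G2 at -3.04, -1.16, 0.01 and -0.72. The test of the dependence on LPS gave -3.69 ± 1.22 (SE, adjusted p = 1, limma), and -2.22 ± 0.67 for the second probe.

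Lgals2 was the gene with the smallest p. The LPS-G1 rats read -0.92, -0.46, -0.99 and -1.02, and the LPS-G2 rats -0.04, 0.54, 0.22 and 1.18 (chr7:116811860-116811919, rn4). All 4 LPS-G1 rats lay below every LPS-G2 rat, and the probe was well above background on all 8 arrays. The difference was -1.32 ± 0.26 (SE), 2.50-fold, with an interval of -1.88 to -0.77 (adjusted p = 0.674, limma). LPS-G0 rats averaged 0.15 ± 0.29 (SD, n = 4), between the diets and nearer to LPS-G2. Within the slides the difference was -0.88, -1.27 and -1.72. In rats without LPS the difference was 0.22 ± 0.31 (SE), and the test of the dependence on LPS gave -1.54 ± 0.44 (adjusted p = 1, limma).

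Stfa2l3 read -0.73, -0.72, -1.37 and -1.54 in LPS-G1 rats and 0.47, -0.19, 0.25 and -0.54 in LPS-G2 rats (chr11:66324700-66324759, rn4). The groups did not overlap, and all 8 arrays were well above background. The difference was -1.09 ± 0.26 (SE, interval -1.64 to -0.53, adjusted p = 0.674, limma). Stefin genes lie in a cluster of close relatives, so the probe may read several of them. Without LPS the difference was -0.34 ± 0.42 (SE).

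The other 9 genes named for lower means in LPS-G1 had differences of -1.12 to -0.83. Tescl, Epn2, Ido2, Ckap2l, Dmtn and Slc6a9 were well above background on every LPS-G2 array but not on every LPS-G1 array. In LPS-G1 this held on 1 array for Tescl, 2 for Epn2 and Ido2, and 3 for the rest. These genes entered the tests through LPS-G2 alone, so their direction was favoured by the filter. Ckap2l, a protein of the mitotic spindle, differed by -1.08, and Dmtn, dematin of the red cell membrane skeleton, by -0.99. Slc6a9, a glycine transporter of erythroid precursors among other cells, differed by -0.88. Itsn1 and Epn2, proteins of endocytosis, differed by -0.96 and -0.98, and a second Itsn1 probe by -0.79. Ido2, an enzyme of tryptophan breakdown, differed by -0.83, and Tescl, Slc35e1 and Cir1 by -1.12, -0.90 and -0.86. Slc35e1 had another probe, well above background on all 8 arrays, at 0.14 with an interval of -0.24 to 0.51.
Several of these rested on 1 rat. LPS-G1 replicate 2 had the lowest value of all 8 arrays for Itsn1 (-2.37), Dmtn (-2.43), Ckap2l (-2.01), Cir1 (-1.85) and Slc6a9 (-1.75). Without it Serp2 differed by -3.82, and the differences were -0.37 for Itsn1, -0.53 for Dmtn, -0.69 for Ckap2l, -0.48 for Cir1 and -0.55 for Slc6a9.

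**Figure D2:**
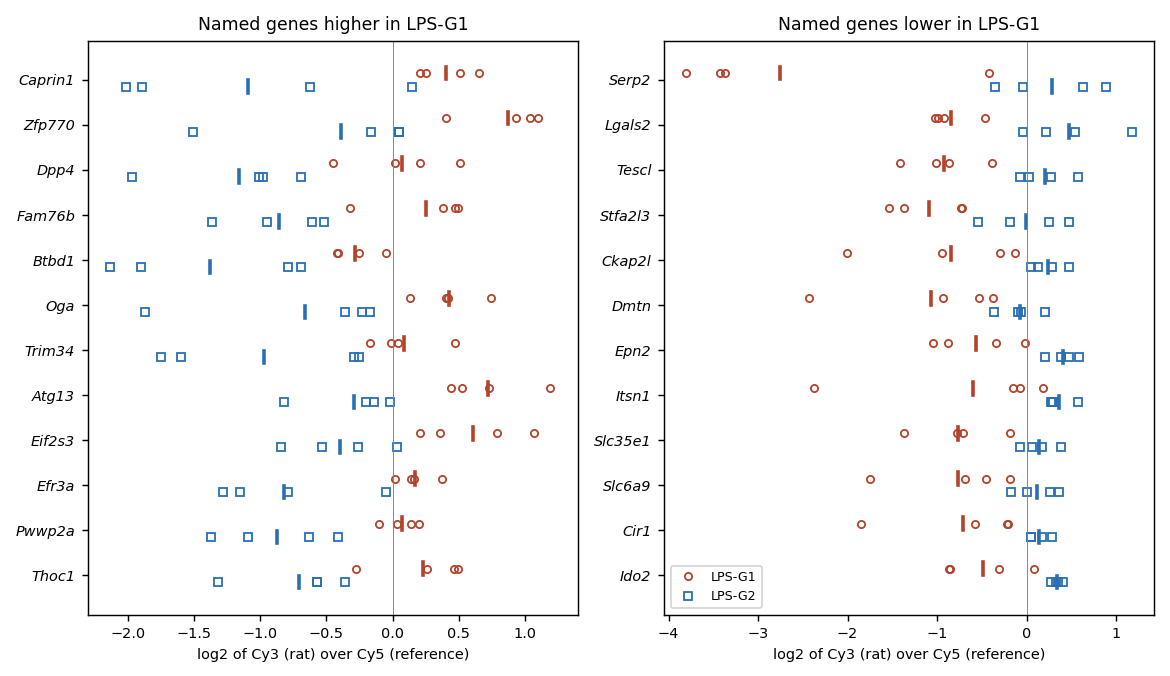
Log2 ratio of Cy3 (rat) over Cy5 (reference) for the 24 named genes, with LPS-G1 rats as circles, LPS-G2 rats as squares and vertical bars at the group means (n = 4). The x axes of the panels differ. Serp2 has 3 LPS-G1 rats between -3.80 and -3.37 and 1 at -0.42, while the LPS-G1 rats lie between -1.02 and -0.46 for Lgals2.

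The 12 genes named for higher means in LPS-G1 mostly had a weak signal in LPS-G2. They were Caprin1 (an RNA-binding protein of stress granules, 1.5), Zfp770 (1.26), Dpp4 (a peptidase of the T cell surface, 1.23), Fam76b (1.11), Btbd1 (1.1), Oga (the enzyme that removes O-GlcNAc, 1.08) and Trim34 (1.06). The remaining ones were Atg13 (a subunit of the complex that starts autophagy, 1.01), Eif2s3 (a subunit of translation initiation factor eIF2, 1.00), Efr3a (0.99), Pwwp2a (a chromatin protein, 0.94) and Thoc1 (an mRNA export factor, 0.94). All 12 entered the tests through LPS-G1 alone, since they met the filter on every LPS-G1 array and on no more than 3 LPS-G2 arrays, so their direction was favoured by the filter. For 7 of them no LPS-G2 array was well above background, so the fold is poorly measured. As a guide, LPS-G2 signal was set no lower than the weakest signal marked well above background on its array. The ratios of mean signal used the Cy3 channel alone after scaling between arrays, and are thus open to dye bias. They were 1.81-fold for Thoc1, 1.95-fold for Btbd1, 2.14-fold for Fam76b and 2.25-fold for Zfp770. They are not lower limits, since normexp background correction gave smaller differences, as described below. For Dpp4, Oga and Trim34 the channel gave more than the ratio of the group means (2.35-, 2.11- and 2.08-fold), so no such ratio is given for them. Among all probes tested, 37 were well above background on no LPS-G2 array, and 0 on no LPS-G1 array. The arrays themselves had 10706 to 13573 probes well above background in Cy3 in LPS-G1 and 10276 to 12737 in LPS-G2. The part of this in the higher means was not tested.
Atg13 was the most evenly measured of them. The LPS-G1 rats read 0.44, 0.52, 1.19 and 0.73, and the LPS-G2 rats -0.82, -0.02, -0.20 and -0.14. All LPS-G1 rats lay above all LPS-G2 rats, and 3 of 4 LPS-G2 arrays were well above background. The difference was 1.01 ± 0.27 (SE, interval 0.45 to 1.57, adjusted p = 0.674, limma). In rats without LPS it was 0.11 ± 0.25 (SE), and the test of the dependence on LPS gave 0.91 ± 0.35 (adjusted p = 1, limma). LPS-G0 rats read -0.46, -1.09, -0.94 and -0.35, all below 3 of the 4 LPS-G2 rats.
Caprin1 shows how such a difference can belong to 1 probe. The named probe read 0.25, 0.65, 0.21 and 0.51 in LPS-G1 and -0.62, 0.15, -2.01 and -1.89 in LPS-G2. The other Caprin1 probe, well above background on all 8 arrays, read 0.04, 0.28, 0.18 and 0.21 against -0.05, 0.14, 0.14 and 0.27. Its difference was 0.05 with an interval of -0.24 to 0.35. Oga rested partly on LPS-G2 replicate 4 (-1.87), without which its difference was 0.67. Other probes of Eif2s3, Fam76b and Efr3a had differences of 0.05, 0.23 and 0.38, smaller than those of the named probes. With normexp background correction and an offset of 50, which damps weak signals, the 12 differences lay between 0.25 and 0.49. The genes with lower means shrank as well, Serp2 to -1.32, Lgals2 to -0.93, Stfa2l3 to -0.84 and the other 9 to between -0.60 (Cir1) and -0.31 (Ckap2l).

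For all 24 named genes, the exact permutation p was 0.0286, the smallest that 70 arrangements of 8 arrays allow. This follows from the choice of genes whose arrays did not overlap, and among all 10020 probes with 8 values, 673 (6.72%) did not overlap. An equal sign on each of the 3 slides follows from the same choice.

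Erythroid genes had lower means in LPS-G1. Of 31 measured, 25 had the lower mean in LPS-G1, 8 of them at an unadjusted p under 0.05 and 0 in the other direction, against 4.45% and 2.21% of all probes. The median difference was -0.38, against 0.03 over all probes. Of all probes tested, 54.2% had the higher mean in LPS-G1, the share to set beside such counts here and in the lists below. The array medians of the list were -0.07, -0.76, -0.18 and -0.05 in LPS-G1 and 0.13, 0.03, 0.09 and 0.11 in LPS-G2, so the groups did not overlap, and LPS-G1 replicate 2 was lowest. In bulk blood, fewer cells of a type and less RNA per cell cannot be told apart.
Urod, an enzyme of haem synthesis, read -0.13, -1.29, -0.50 and -0.42 in LPS-G1 and -0.11, -0.14, 0.29 and 0.33 in LPS-G2 (difference -0.68, 95% interval -1.13 to -0.23). Hemgn, a nuclear protein of erythroid precursors, differed by -0.63 (-1.08 to -0.17), Gypc, a glycophorin, by -0.76 (-1.33 to -0.19), and Xk, a membrane protein of the Kell complex, by -0.68 (-1.20 to -0.15). Gypc, Hemgn, Xk and Dmtn had no overlap between the groups, 4 of 31 members against 3.39% of all probes in this direction. The counts of this list keep members that met the filter in LPS-G2 alone, such as Dmtn, whose direction was favoured by the filter. The globins did not share this, with 0.13 for Hbb and 0.06 for Hba-a1, and Alas2, the first enzyme of haem synthesis in erythroid cells, was at -0.04.
The erythroid difference leaned on LPS-G1 replicate 2. Without it the median was -0.15 and 2 of 31 members had an unadjusted p under 0.05, while without LPS-G1 replicate 1 the count was 12. The count over all probes moved the same way. Without LPS-G1 replicate 1, 906 of 10025 probes were lower at that level, against 446 with all arrays, and without replicate 2 the total fell. Within slides the median was -0.19, -0.51 and -0.25. Of 23 members with a promoter in the RefSeq table, 7 (30.4%) held AGATAA before a start site, against 10.9% of 27457 genes counted the same way. This share covers all tested members, whether or not they differed, so it describes the list and not the diets.

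Neutrophil genes also had lower means in LPS-G1. Of 14 measured, 13 had the lower mean, 6 of them at an unadjusted p under 0.05 (against 4.45% of all probes), with a median of -0.37. Csf3r, the receptor for G-CSF, read -0.05, -0.31, -0.19 and -0.63 in LPS-G1 and 0.39, 0.03, 0.52 and 0.07 in LPS-G2, without overlap (difference -0.55, interval -1.02 to -0.08). Padi4, which citrullinates histones, differed by -0.46 (-0.82 to -0.10), Il1r2, the decoy receptor for interleukin 1, by -0.60 (-1.11 to -0.09), and Anxa1, annexin A1, by -0.48 (-0.90 to -0.06). Ncf4 and Cxcr2 differed by -0.30 and -0.51. The abundant S100a8 and S100a9 differed by -0.42 and -0.38 with overlapping rats and intervals of -0.96 to 0.13 and -0.98 to 0.21. The array medians overlapped, from -0.39 to -0.05 in LPS-G1 and from -0.12 to 0.44 in LPS-G2, and those of LPS-G0 ran from -0.54 to -0.20.
Single rats moved this count widely. It was 1 without LPS-G1 replicate 2 or without LPS-G2 replicate 1, 2 without LPS-G2 replicate 3 and 3 without LPS-G1 replicate 4, and the median then lay between -0.37 and -0.24. The count over all probes also fell without LPS-G1 replicate 2 or 4.

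Cell division genes also had mostly lower means in LPS-G1. Of 13 measured, 12 had the lower mean and 4 of these an unadjusted p under 0.05 (against 4.45% of all probes), with a median of -0.37. Tpx2, a factor of spindle assembly, read 0.14, -3.10, -0.42 and -0.49 in LPS-G1 and 0.31, 0.14, 0.33 and 0.08 in LPS-G2 (difference -1.18, interval -2.17 to -0.20). Racgap1 differed by -0.71, Spag5 by -0.55 and Dlgap5 by -0.41. Mki67, the proliferation marker, differed by -0.37 (-0.98 to 0.24). The count was 1 without LPS-G1 replicate 2 or without LPS-G2 replicate 1, and 2 without any one of the other LPS-G2 arrays. Without LPS-G1 replicate 2 the median was -0.19, and the count over all probes fell too. Genes of DNA replication did not share this, with 0 of 14 at an unadjusted p under 0.05 and a median of 0.18.

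T cell genes and ribosomal protein genes leaned the other way without passing any test. Of 19 T cell genes 16 had the higher mean in LPS-G1, with a median of 0.23 and 0 at an unadjusted p under 0.05. Cd3e read 0.05, 0.16, -0.24 and -0.14 in LPS-G1 and -0.06, -0.51, -0.03 and -0.30 in LPS-G2, a difference of 0.18 within overlapping rats. Of 76 cytosolic ribosomal protein genes 70 had the higher mean, with a median of 0.14, 0 at an unadjusted p under 0.05, and all 76 intervals within 2-fold. Over all probes, 54.2% had the higher mean in LPS-G1. The rats did not overlap for 8 of the ribosomal protein genes, against 3.32% of all probes in this direction. The array medians of the T cell list overlapped, and those of the ribosomal list did so barely, from 0.01 to 0.20 in LPS-G1 and from -0.13 to 0.02 in LPS-G2.

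**Figure D3:**
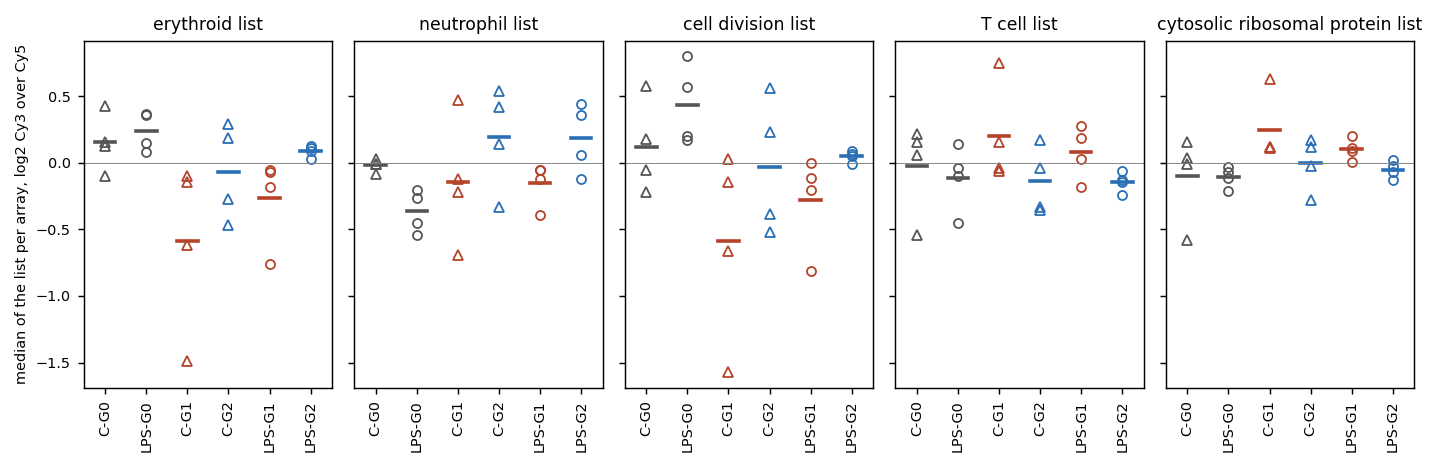
Median log2 ratio of Cy3 over Cy5 of 5 gene lists on each array, with groups on the x axis, circles for LPS-injected rats, triangles for rats without LPS and bars at the group means (n = 4). In the erythroid panel the 4 LPS-G1 rats (-0.76 to -0.05) lie below the 4 LPS-G2 rats (0.03 to 0.13), and 1 C-G1 rat is at -1.49.

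The lists that follow beta-glucan and LPS sensing differed little. Over all probes, 6.66% had an unadjusted p under 0.05 in either direction. Of 15 genes of beta-glucan receptors and Syk-Card9 signalling, 1 had an unadjusted p under 0.05, Fcer1g, the signalling chain of several lectin receptors, with -0.40 (-0.79 to -0.01). Clec7a itself differed by -0.11 with an interval of -0.72 to 0.51, Syk by 0.03 (-0.42 to 0.47) and Card9 by -0.13 (-0.57 to 0.30). Clec4d, a C-type lectin of myeloid cells, was the largest of the list at -0.60 (-1.22 to 0.02). Of 16 Toll-like receptor genes 0 had an unadjusted p under 0.05, and 15 of 16 intervals lay within 2-fold. Tlr2 differed by -0.30 (-0.63 to 0.04) and the adaptor Myd88 by -0.02 (-0.46 to 0.41). Of 9 inflammasome genes 0 reached that level either, with Il1b at -0.36 (-0.89 to 0.16) and Casp1 at 0.30 (-0.08 to 0.69).
Among 24 interferon-stimulated genes the median difference was 0.00. Of their intervals, 16 lay within 2-fold. The member at an unadjusted p under 0.05 was Oas1a, a sensor of double-stranded RNA, at -1.08 (-1.90 to -0.25), with LPS-G1 at -1.77, -1.13, -1.58 and 0.06 and LPS-G2 at 0.16, -0.03, 0.43 and -0.67. Rsad2, an antiviral enzyme, was lower in every LPS-G1 rat (-1.57 to -0.30) than in any LPS-G2 rat (-0.12 to 0.11), a difference of -0.62 (-1.29 to 0.04). Ifi27 had the highest difference, 0.91 (-0.41 to 2.24), with LPS-G2 replicate 1 at -3.66. In NF-kB signalling, Tnip2 was higher in every LPS-G1 rat (0.21 to 0.44) than in any LPS-G2 rat (-0.62 to -0.03), a difference of 0.63 (0.17 to 1.09). The other 10 genes of that list did not reach an unadjusted p of 0.05, and the median was -0.11. B cell, monocyte, platelet, cytotoxic and MHC class II lists had 0 members at that level and medians of 0.00, 0.00, -0.05, 0.15 and -0.01. Of 10 prostaglandin and leukotriene genes 0 reached it (median -0.09), and of 28 chemokine and cytokine genes 2 did, Il1r2 and Cxcr2, which the neutrophil list also holds (median -0.12). The latter count was near the share of all probes, 6.66% in either direction.

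Lists of metabolism and stress held single members at an unadjusted p under 0.05, a level that 6.66% of all probes reached in either direction. Among 28 autophagy genes these members were Atg13, and in the other direction Map1lc3a (-0.35, interval -0.67 to -0.04) and Atg9a (-0.38, -0.72 to -0.04). Both of the latter were without overlap of rats, as were 3.39% of all probes with lower means in LPS-G1. The list median was -0.14. Pmvk and Msmo1 of cholesterol synthesis differed by 0.55 and 0.48 (list median 0.09). Gpx1, glutathione peroxidase 1, differed by -0.45, with -0.15 as the median of 21 antioxidant enzymes. Hk1, a hexokinase, was lower in every LPS-G1 rat (-0.81 to -0.32) than in any LPS-G2 rat (-0.24 to 0.01), a difference of -0.42 (-0.73 to -0.11). Cox7c of oxidative phosphorylation, Psmb1 of the proteasome and the collagen chaperone Serpinh1 differed by 0.65, 0.30 and -0.38. The medians of these lists were 0.03, 0.07 and 0.09, that of glycolysis was -0.06, and that of 13 immediate early genes, with 0 at this level, was -0.10.
Of 19 measured genes that the study discussed, 5 had an unadjusted p under 0.05, against 6.66% of all probes in either direction. This list was chosen on comparisons that include these arrays, so its count is not independent evidence. The 5 genes were Serp2, Atg13, Tpx2, Dmtn and Slc27a2. Serp2 and Dmtn met the filter in LPS-G2 alone and Atg13 in LPS-G1 alone, so their directions were favoured by it. Slc27a2, a fatty acid transporter with acyl-CoA synthetase activity, read 0.38, -2.92, -2.33 and -1.84 in LPS-G1 and -0.07, 0.70, 0.39 and -0.64 in LPS-G2 (difference -1.77, interval -2.90 to -0.64). Without LPS its difference was 1.63, in the opposite direction.

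The same diets were compared without LPS on other arrays, C-G1 against C-G2. There too 0 probes passed the adjusted threshold, and 1558 (15.5%) had an unadjusted p under 0.05, 515 with higher (5.14%) and 1043 with lower means in C-G1 (10.4%). The G1 minus G2 difference with LPS correlated with that without LPS at r = 0.65 across 10025 probes, and 78.5% of probes had the same sign. This is a description across probes, which are not independent, and no test is attached. Of 668 probes with an unadjusted p under 0.05 in LPS rats, 623 (93.3%) had the same sign without LPS. Leaving out any one of the 16 arrays kept r between 0.52 and 0.67.
The comparisons with and without LPS shared no rat, but they shared slides, a reference and a layout. Each slide held both diets with and without LPS, G1 groups had 2 arrays on slide 2 and G2 groups 2 on slide 3, and G2 arrays always lay at later positions on the slide than G1 arrays. Diet and position on the slide cannot be told apart. With slide as a block r was 0.56, and within a single slide it was 0.08, 0.37 and 0.31. Between the difference with LPS on one slide and that without LPS on another it was 0.14 to 0.38. The Cy3 channel alone gave 0.70, and the Cy5 channel, which held the reference, gave 0.41, although its differences were smaller (median absolute difference 0.0795 against 0.214 in Cy3). The parts of slide, reference and array position in these correlations were not tested.

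The named genes and lists followed this in most cases. Of 24 named genes 22 had the same sign without LPS, the exceptions being Serp2 and Lgals2. Pwwp2a, for one, differed by 1.06 ± 0.33 (SE) without LPS. The erythroid median was -0.59 without LPS, with 9 of 31 members at an unadjusted p under 0.05 and lower, against 10.4% of all probes, and the cell division median was -0.47. C-G1 replicate 2 had the lowest array median of both lists (-1.49 and -1.57), and it lay on the same slide as LPS-G1 replicate 2. The neutrophil median was -0.23, the T cell median 0.33 and the ribosomal protein median 0.28.
Whether the difference between the diets depended on LPS was tested on all 24 arrays. Of 10025 probes 0 passed an adjusted p of 0.05, and 100 (0.998%) had an unadjusted p under 0.05. Among the named genes these were Lgals2, Serp2 and Atg13, with the values given above. Named genes were chosen for large differences in LPS-injected rats, which are part of this test. Their results in it were thus favoured by the choice and are not independent evidence. Averaged over rats with and without LPS, a comparison added after the data were seen, 2352 probes had an unadjusted p under 0.05 and 0 passed the adjusted threshold (smallest adjusted p 0.167, limma).

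**Figure D4:**
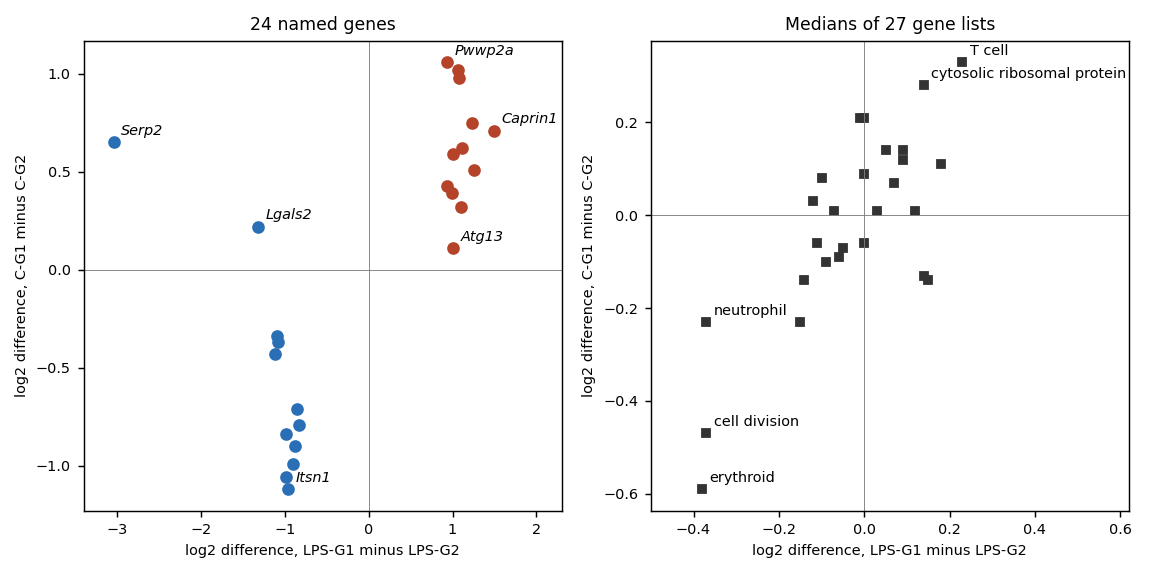
Log2 difference of the diets in LPS-injected rats (x axis, LPS-G1 minus LPS-G2) against that in rats without LPS (y axis, C-G1 minus C-G2), for the 24 named genes on the left and the medians of 27 gene lists on the right. Of the named genes 22 lie in the quadrants of equal sign, and Serp2 and Lgals2 do not.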

How the data were processed

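Blood RNA of single rats was hybridized with a common reference RNA on two-color SurePrint G3 Rat microarrays. The authors deposited, per the file headers, Agilent Feature Extraction (10.10.1.1) output with background-subtracted, Lowess-balanced intensity values per channel and their log10 ratio of Cy5 over Cy3. The submitters' processing notes name version 10.7.3.1. The deposited series table holds the same log10 ratios, and all 1511424 values were identical.

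The log10 ratio was turned in sign and scaled to log2. Outlier spots and 4259 control spots were dropped, and repeated spots were averaged to 30367 probes. A probe counted as well above background when at least 50% of its spots were marked so. Tests covered the 10025 probes that met this in Cy3 for every array of LPS-G1 or every array of LPS-G2, 4 each. The number of arrays limits the precision.

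All LPS-injected groups and C-G0 (16 arrays) were fitted with limma 3.58.1 (R 4.3.3, with the package data.table in version 1.17.8), two-sided, with Benjamini-Hochberg adjustment over all probes tested. By title, 2 arrays counted as LPS-G0 although another of their labels names no LPS. They enter only through the shared spread. Comparisons with C-G1 and C-G2 used all 24 arrays. For single probes, an exact permutation test ran over 70 arrangements. The fit was tested on simulated data. Alternatives changed the samples, filter, normalization, channel, spread, slide, pairing and test.

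Named genes are, in each direction, the 12 with a symbol, an unadjusted p under 0.05, no overlap of arrays and the largest difference, since no probe passed the adjusted threshold. Of each gene list, 1 probe per gene was used, the brightest one tested. Probes that met the filter in LPS-G1 alone or in LPS-G2 alone were kept in the lists. The groups, members and lists were chosen with earlier results of these data known. Names were updated through RefSeq, in which 18643 of 23402 accessions were found, and 28795 probes carried a position on rn4. Promoters are those of RefSeq on GRCr8. Figures were drawn with Python 3.11.15 and matplotlib 3.10.9.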

Additional observations from a re-analysis of the deposited data

Results flagged for a closer look

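In 102 groups of 4 rats (the 24 named genes and 27 list medians in LPS-G1 and LPS-G2), the highest or lowest rat was tested for its gap to the others with Dixon's test, and 8 groups had a rat beyond the 95% critical value. Chance alone gives about 1 in 20. LPS-G1 replicate 2 stood apart for Serp2 at -0.42, with the other LPS-G1 rats from -3.80 to -3.37, and for Itsn1 at -2.37, with the others from -0.15 to 0.18. LPS-G1 replicate 1 stood apart for Fam76b at -0.32, with the others from 0.38 to 0.49. LPS-G2 replicate 4 stood apart for Zfp770 at -1.51, for Oga at -1.87, for Itsn1 at 0.58 and for the median of the cytotoxic T and NK cell list at -0.29, with the others from 0.07 to 0.13. LPS-G2 replicate 3 stood apart for the median of the genes discussed by the study at 0.23, with the others from -0.10 to -0.06. No explanation was tested.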

How the results depend on the processing

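The count of probes past the adjusted threshold was 0 in the main setting and under all alternatives run, and so was the count of probes whose difference between the diets depended on LPS (0 throughout, 0 to 0 when leaving out 1 array). The smallest adjusted p was 0.0595, with array weights, and 1 with the methods' analysis of variance and Tukey HSD. The 43 probes at an unadjusted p under 0.05 and 2-fold became 447 with no filter on dim probes, 9 with probes well above background on all 8 arrays, 9 with normexp and loess, 67 with array weights and 12 with Tukey HSD. Leaving out 1 array gave 32 to 80. Under the other settings it lay within 1.5 times. Aquantile gave the same values as the deposited ratios. The 668 probes at an unadjusted p under 0.05 became 1205 with the 8 arrays alone, 416 with all 24, 1232 without C-G0, 1761 with no filter, 386 in Cy3 alone, 2179 with array weights and 126 with Tukey HSD. The 100 for the dependence on LPS became 764 with no filter, 316 with array weights, 49 in Cy3 alone and 245 without C-G2 replicate 2. The replicate block gave 42 such probes, 978 at an unadjusted p under 0.05 and 0 adjusted, and it changed no other call. Same-numbered arrays of LPS-G1 and LPS-G2 correlated at 0.025, 0.035, 0.018 and 0.158 (mean 0.059) and others at -0.018, so the numbers were not taken as pairs. None of the 24 named genes passed the adjusted threshold under any alternative run for them. Their sign was equal throughout, which for arrays left out follows from the choice of genes without overlap. Of the list medians recomputed, 400 stayed within 1 SD and 5 moved further, those of the antioxidant, glycolysis and discussed genes. The cause of these changes was not tested. Weak signal in LPS-G2 limits the probes with higher means in LPS-G1, and weak signal in LPS-G1 limits several of those with lower means.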
